A study of Mus musculus with 18 samples.

Results

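The 36 genes described here encode the transporters of glucose and lactate, the enzymes of glycolysis and of the pentose phosphate pathway, and the hypoxia-inducible factor HIF-1α with its regulators and some of its target genes. The list names genes by pathway and was drawn up with earlier results of these data known, though no measured value enters its rule. All 36 were found among the 53379 gene IDs of the deposited count table. RNA was sequenced from neutrophils that had been isolated by flow cytometry from the bone marrow of mice aged 10 weeks, either labelled CIS-/- or wild type (WT). CIS, encoded by Cish, is a feedback inhibitor of cytokine receptor signalling, and the series asks how it restrains GM-CSF, a cytokine that activates neutrophils and keeps them alive. Cells labelled CIS-/- and WT cells were each lysed right after the sort (unstimulated) or kept for 4 h or 24 h in RPMI medium with serum, antibiotics and 100 ng/mL GM-CSF. That gives 3 groups labelled CIS-/- and 3 WT groups, with 3 libraries in each. The labels give neither the strain, nor the allele, nor whether the 3 libraries of a group came from separate mice, so p-values measure the spread between these libraries, which may be technical. No culture without GM-CSF was analysed here, so time in culture and GM-CSF changed together, and one label field gives a longer second time than the titles, whose 24 h is used.

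Glycolysis splits glucose into pyruvate and lactate, and the pentose phosphate pathway draws on the same glucose to make NADPH and ribose. Neutrophils hold few mitochondria and live mainly on glycolysis, while NADPH feeds the oxidase with which they kill microbes. HIF-1α switches on glycolytic genes when oxygen is low, or when cytokines raise its level, and prolyl hydroxylases of the EGLN family use oxygen to mark it for degradation. These are RNA measurements and say nothing of protein or of flux.

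Library totals lay between 12170524 and 22539858 counts, and 35 of the 36 genes were abundant enough to be tested together with 11569 genes in all. Their level is given as CPM, the share of a library's counts after TMM scaling on the usual CPM scale, which sets the bulk of genes level between libraries. Cish stood at 18.3, 20.0 and 17.9 CPM before culture, 243, 240.4 and 237 CPM at 4 h and 238, 243 and 233 CPM at 24 h in libraries labelled CIS-/-. In WT, Cish stood at 6.48, 6.52 and 6.5 CPM before culture, 1155, 1138 and 1153 CPM at 4 h and 1069, 1056 and 1056 CPM at 24 h. Cish was thus lower than in WT after GM-CSF but higher before it, which goes against the label, and the counts cover the whole gene with any part left of it. The groups are therefore called libraries labelled CIS-/- throughout, also where a direction is drawn from the unstimulated ones. All 12 neutrophil markers were detected in every group, and their summed level was 35248 to 39962 CPM in libraries labelled CIS-/- and 34480 to 35833 CPM in WT at 24 h, against 118830 to 122757 CPM in libraries labelled CIS-/- and 123969 to 125194 CPM in WT before culture. In bulk RNA, fewer cells of a type and less RNA per cell cannot be told apart.

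The other cell types' markers were not level between genotypes. The 6 erythroid markers summed to 88.7 to 89.9 CPM in unstimulated libraries labelled CIS-/- and 32.2 to 34.6 CPM in WT. They came to 59.0 to 87.6 CPM in those labelled CIS-/- and 23.4 to 27.9 CPM in WT at 4 h, and to 23.3 to 33.8 CPM in those labelled CIS-/- and 5.96 to 7.37 CPM in WT at 24 h. Car1 was at 0 after culture in both genotypes, and Klf1 was at 0 in WT at 24 h. The 8 monocyte and macrophage markers summed to 1011 to 1050.2 CPM in libraries labelled CIS-/- and 540.2 to 560.9 CPM in WT at 24 h, with Adgre1 at 777 CPM in those labelled CIS-/- and 344 CPM in WT. The 6 endothelial and stromal markers summed to 955 to 976 CPM in those labelled CIS-/- and 72.3 to 75.7 CPM in WT at 24 h, of which Pecam1 gave 831 CPM in those labelled CIS-/- and 53.2 CPM in WT. At that time Cdh5 and Col3a1 were at 0 in both genotypes. The endothelial and stromal sum was 456 to 462 CPM in those labelled CIS-/- and 396 to 409.5 CPM in WT at 4 h. The 7 eosinophil and basophil markers summed to 40.6 to 41.8 CPM in those labelled CIS-/- and 33.9 to 36.8 CPM in WT before culture. They came to 37.7 to 40.6 CPM in those labelled CIS-/- and 16.7 to 22.8 CPM in WT at 4 h, and to 53.4 to 57.6 CPM in those labelled CIS-/- and 57.5 to 65.8 CPM in WT at 24 h. Those of B cells, of T and NK cells and of dendritic cells summed to at most 1.10 CPM in any library at 24 h. The part of these markers in the differences below was not tested.

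Scaling bears on every direction at 24 h. The 10 most abundant genes of each library took 11.1 to 12.1% of the counts in libraries labelled CIS-/- at 24 h and 7.91 to 8.02% in WT. The TMM factors were 0.884 to 0.894 in those labelled CIS-/- and 1.28 to 1.29 in WT. With library sizes alone, the median of all genes moved to -0.55 on the log2 scale between genotypes at 24 h and to 0.36 in WT between 24 h and the unstimulated state. Changes are therefore given relative to the bulk of genes, and each direction that turns without TMM scaling is named beside it. The sizes of differences, such as 2-fold, likewise hold for TMM scaling.

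Compared per kilobase of exon, the 36 genes spanned a wide range of levels. In unstimulated WT neutrophils, Taldo1 (678 CPM per kb), Pkm (465), Aldoa (358) and Hk3 (333) stood highest, and P4ha1 (1.13), Pdk1 (0.479), Pfkm (0.0849) and Slc16a1 (0.032) lowest. The median of the 35 tested genes' mean levels was 134 CPM, against 12.3 CPM over all tested genes. Higher counts bring more calls, so the counts of calls below are set beside the background without being read as particular to these genes.

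After 4 h in GM-CSF, 12 of the 35 tested genes rose in WT, 22 fell and 1 did not pass the test (edgeR, adjusted p under 0.05), where 76.3% of all tested genes were called. At 24 h against unstimulated WT, 12 rose and 21 fell, with 78.4% of all genes called. Over all 11569 tested genes 4404 rose and 4422 fell at 4 h in WT, and 4707 rose and 4361 fell by 24 h. The median log2 fold change of the 35 genes was -0.30 at 4 h and -0.45 at 24 h, against -0.02 and 0.05 over all genes. Between 4 h and 24 h in WT, 12 genes rose and 21 fell (background 75.3%), and with library sizes alone 16 rose and 12 fell. The libraries labelled CIS-/- had 10 genes higher and 22 lower at 4 h (background 77.0%), 13 higher and 21 lower at 24 h (84.1%), and 11 higher and 20 lower at 24 h than at 4 h (75.7%). These comparisons share their unstimulated or 4 h libraries.

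Between genotypes, 11 genes were higher and 3 lower in unstimulated libraries labelled CIS-/- than in WT, and 21 did not pass, with 22.3% of all genes called, 12.9% higher and 9.41% lower. At 4 h 6 were higher, 10 were lower and 19 did not pass, with 17.3% of all genes called. At 24 h 21 were higher and 12 lower than in WT, and only Pkm and Pfkfb3 did not pass, with 76.3% of all genes called, 38.2% higher and 38.1% lower. None of the 35 was called with a difference of 2-fold or more before culture or at 4 h, where 1.75% and 1.09% of all genes were, and 11 did at 24 h, 6 upward and 5 downward, where 34.2% of all genes did. With library sizes alone the split at 24 h turned to 12 higher and 21 lower, since Hk3, Aldoa, Pgk1, Pgam1, Ldha, G6pdx, Pgd and Egln2 changed sign (Pgk1 without a call). The split of all 11569 tested genes moved as well, to 2558 higher and 6999 lower, from 4416 and 4411 with TMM. Pkm and Pfkfb3 were then called lower, and Hif1a no longer passed. The other 24 called genes kept both direction and call. Slc16a1, with the fewest reads of the 35, is 1 of the 21 higher genes at 24 h and 1 of the 6 with 2-fold or more. The response to 4 h differed between genotypes for 18 of the 35 genes (15.7% of all genes), that to 24 h for 30 (64.7%) and the change between 4 h and 24 h for 30 (66.0%), by the interaction term of the same fit.

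**Figure D1:**
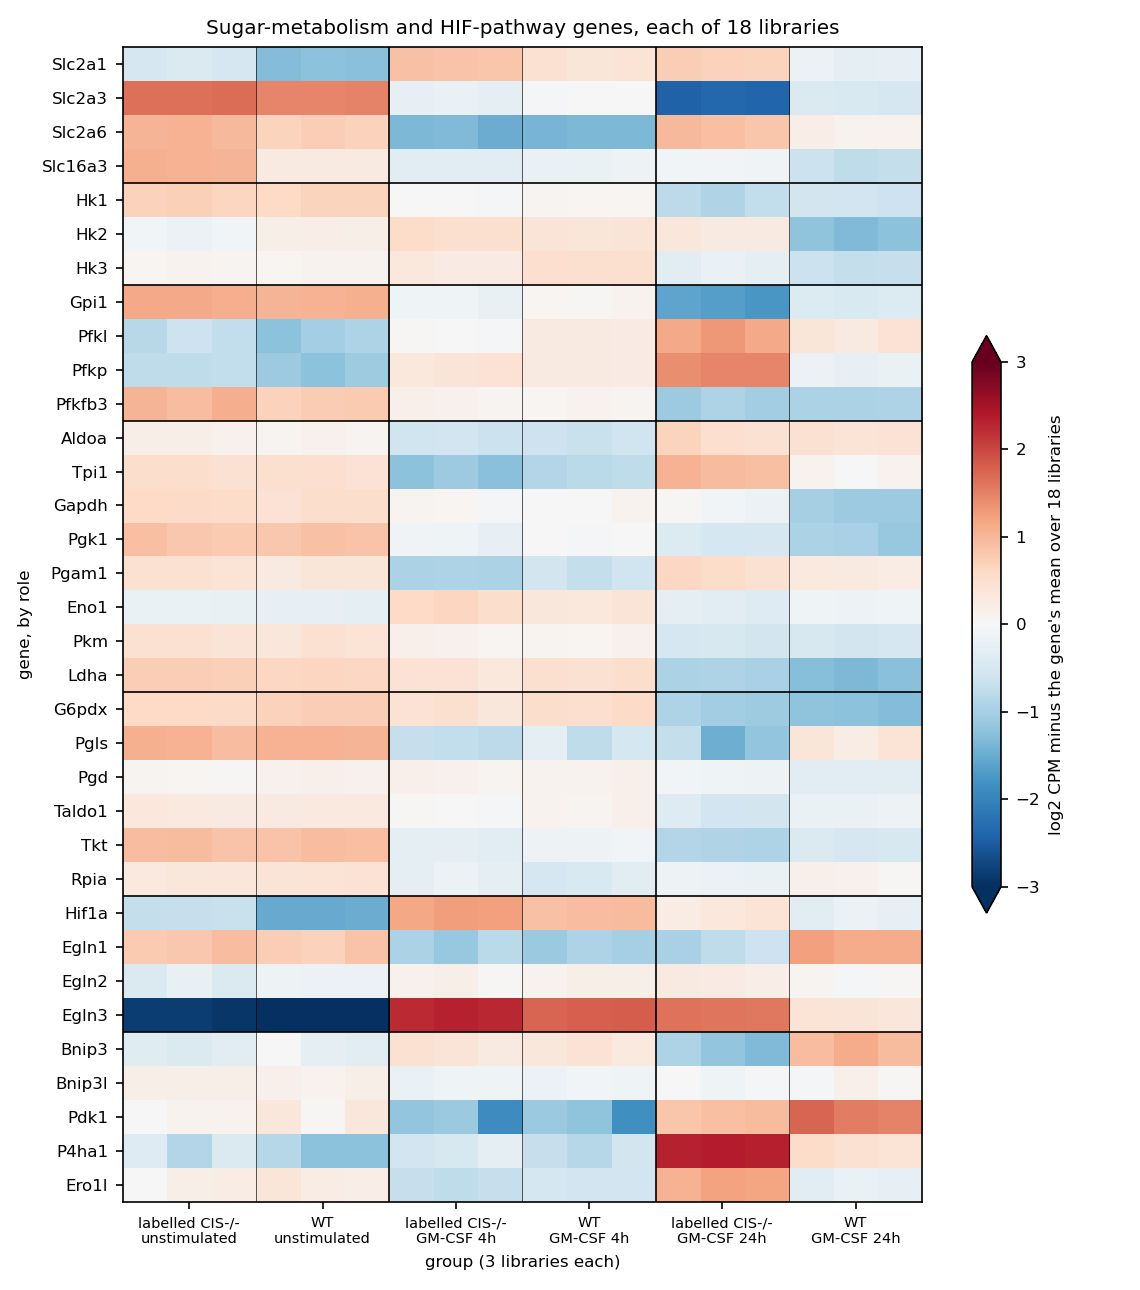
Level of each gene in each library as the log2 CPM minus the gene's own mean over the 18 libraries, with genes in rows by role, libraries in columns, and the colour scale ending at 3 on either side. Slc16a1 and Pfkm, which lay under 1 CPM on average, are left out. On this colour scale the 3 libraries of a group look alike, and Egln3 runs from its lowest levels in unstimulated libraries to its highest at 4 h.

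The message for HIF-1α rose after GM-CSF in both genotypes and stood higher in the libraries labelled CIS-/- at all 3 time points, and Egln3, a prolyl hydroxylase that is itself a HIF target, rose more than any other of the 35 genes. Hif1a is ENSMUSG00000021109.13 (chromosome 12, 73901375 to 73947530, plus strand) and Egln3 ENSMUSG00000035105.5 (chromosome 12, 54178981 to 54203860, minus strand), both in GENCODE on GRCm38. Hif1a stood at 161, 162 and 166 CPM before culture, 589, 622 and 617 CPM at 4 h and 307, 327 and 346 CPM at 24 h in libraries labelled CIS-/-. In WT, Hif1a stood at 91.9, 92.1 and 93.3 CPM before culture, 483, 497 and 506 CPM at 4 h and 208, 231 and 222 CPM at 24 h. The libraries labelled CIS-/- lay above WT without overlap before culture, at 4 h and at 24 h. The log2 fold change from the unstimulated state to 4 h was 1.90 ± 0.04 in libraries labelled CIS-/- and 2.42 ± 0.04 in WT, so the rise in WT was larger, with a difference of -0.52 ± 0.06 (interaction, edgeR adjusted p = 4.40e-11). Against WT, Hif1a differed by 0.82 ± 0.04 unstimulated, 0.30 ± 0.04 at 4 h and 0.57 ± 0.04 at 24 h (edgeR adjusted p = 1.70e-24, 1.49e-09 and 4.88e-21), and the last came to 0.038, not called, with library sizes alone.

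Egln3 stood at 34.5, 34.1 and 32.6 CPM before culture, 1175, 1218 and 1177 CPM at 4 h and 764, 756 and 739 CPM at 24 h in libraries labelled CIS-/-. In WT, Egln3 stood at 29.8, 26.2 and 26.6 CPM before culture, 835, 862 and 867 CPM at 4 h and 329.9, 325 and 312 CPM at 24 h. No library at 4 h or 24 h overlapped an unstimulated one, and the levels at 24 h lay below those at 4 h in both genotypes. At 4 h the log2 fold change of Egln3 was 5.14 ± 0.04 in libraries labelled CIS-/- and 4.95 ± 0.04 in WT (edgeR adjusted p = 2.87e-67 and 4.22e-66). At 24 h the libraries labelled CIS-/- held more than 2-fold the WT level with TMM scaling, with a log2 fold change of 1.22 ± 0.03 (edgeR adjusted p = 3.91e-40). The rise at 4 h differed between genotypes by 0.19 ± 0.06 (edgeR adjusted p = 0.0348), a call that was lost when unstimulated replicate 2 or 3 or 4 h replicate 2 labelled CIS-/- was left out, or WT unstimulated replicate 1 or 4 h replicate 1.

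Egln1, the main oxygen sensor among the prolyl hydroxylases, had another course. Egln1 stood at 23.3, 23.5 and 25.5 CPM before culture, 6.96, 6.11 and 7.66 CPM at 4 h and 6.9, 7.91 and 8.76 CPM at 24 h in libraries labelled CIS-/-. In WT, Egln1 stood at 22.6, 21.6 and 24.4 CPM before culture, 6.25, 7.07 and 6.75 CPM at 4 h and 31.7, 29 and 28.8 CPM at 24 h. All 6 libraries at 4 h lay under all 6 unstimulated ones, and at 24 h the WT libraries lay above all unstimulated ones while those labelled CIS-/- stayed below them. Egln1 was lower in libraries labelled CIS-/- at 24 h, with a log2 fold change of -1.90 ± 0.09 (edgeR adjusted p = 6.85e-29), and its change from the unstimulated state differed by -1.97 ± 0.11 (edgeR adjusted p = 3.42e-23). Per kilobase, the Egln1 message stood at 2.19 CPM and that of Egln3 at 283 CPM in libraries labelled CIS-/- at 24 h, against 8.3 CPM for Egln1 and 121 CPM for Egln3 in WT. Egln2, the third hydroxylase, averaged 70.8 ± 1.89 CPM in libraries labelled CIS-/- and 60.8 ± 2.93 CPM in WT at 24 h, and its genotype difference of 0.22 ± 0.05 at 24 h turned to -0.31 with library sizes alone.

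Promoter windows, from 250 bases before to 50 bases after the annotated start, were at hand for 33 of the 36 genes in RefSeq on GRCm38.p6; Bnip3l, Ero1l and Slc2a3 were not matched. The windows of 5 genes whose level differed more than 2-fold between genotypes at 24 h are shown, chosen after their values were seen: Egln3 (chr12:54203825-54204124, minus strand), P4ha1 (chr10:59323046-59323345, plus strand) and Hk2 (chr6:82774405-82774704, minus strand), which were higher in libraries labelled CIS-/-, and Egln1 (chr8:124949205-124949504, minus strand) and Bnip3 (chr7:138909457-138909756, minus strand), which were lower. Each is written 5′ to 3′ on the gene's strand, and capitals mark the core letters that HIF binds, ACGTG or GCGTG on either strand.
Egln3: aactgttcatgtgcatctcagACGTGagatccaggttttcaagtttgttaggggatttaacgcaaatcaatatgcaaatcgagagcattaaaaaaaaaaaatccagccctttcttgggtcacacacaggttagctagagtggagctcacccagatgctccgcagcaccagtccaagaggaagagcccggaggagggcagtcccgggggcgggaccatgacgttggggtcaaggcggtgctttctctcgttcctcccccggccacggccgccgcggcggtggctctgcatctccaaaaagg
P4ha1: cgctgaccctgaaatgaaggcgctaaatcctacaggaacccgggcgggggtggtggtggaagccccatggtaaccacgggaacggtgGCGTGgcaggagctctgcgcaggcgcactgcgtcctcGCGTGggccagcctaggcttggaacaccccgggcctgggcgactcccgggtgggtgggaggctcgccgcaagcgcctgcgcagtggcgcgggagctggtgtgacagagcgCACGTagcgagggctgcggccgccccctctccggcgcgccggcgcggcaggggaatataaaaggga
Hk2: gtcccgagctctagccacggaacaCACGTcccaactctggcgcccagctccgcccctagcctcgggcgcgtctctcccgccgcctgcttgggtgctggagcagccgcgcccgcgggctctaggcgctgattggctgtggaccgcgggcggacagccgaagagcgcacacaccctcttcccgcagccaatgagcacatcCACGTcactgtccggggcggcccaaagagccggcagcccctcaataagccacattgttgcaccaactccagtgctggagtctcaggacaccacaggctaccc
Egln1: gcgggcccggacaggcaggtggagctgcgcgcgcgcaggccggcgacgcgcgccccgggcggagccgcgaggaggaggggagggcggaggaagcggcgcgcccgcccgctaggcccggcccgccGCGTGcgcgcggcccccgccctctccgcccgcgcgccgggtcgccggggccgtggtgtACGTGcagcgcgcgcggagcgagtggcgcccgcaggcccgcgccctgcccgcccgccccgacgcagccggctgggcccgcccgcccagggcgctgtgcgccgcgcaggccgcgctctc
Bnip3: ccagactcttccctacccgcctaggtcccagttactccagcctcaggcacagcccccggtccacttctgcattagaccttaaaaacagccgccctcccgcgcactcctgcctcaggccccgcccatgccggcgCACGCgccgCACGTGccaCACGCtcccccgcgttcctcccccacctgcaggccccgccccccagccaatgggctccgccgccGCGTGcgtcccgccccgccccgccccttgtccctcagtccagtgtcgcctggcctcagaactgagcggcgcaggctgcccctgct
Both the genes that were higher and those that were lower hold these letters, 1 match in Egln3, 3 in P4ha1, 2 in Hk2, 2 in Egln1 and 5 in Bnip3. Over all 33 matched genes, 31 (93.9%) held a match in some window, against 67.1% of the 8615 tested genes with a window and 46.7% of all genes in the table. CACGTG, which contains the core on both strands and is also the E-box of other factors, was in 7 of 33 (21.2%), against 12.1% of tested genes. TTCNNNGAA, the palindrome that STAT5 downstream of the GM-CSF receptor binds, was in 1 of 33 (3.03%), that of Pfkm, against 8.46% of tested genes. The genes compared were not matched for base composition or number of windows, and the list holds HIF targets by choice, so these shares test no enrichment. A match shows the letters only, not binding.

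HIF target genes outside glycolysis split in both directions. Before culture and at 4 h they differed little between genotypes, with P4ha1 before culture the only one called (22.3% of all genes called before culture and 17.3% at 4 h), whereas at 24 h all 5 did (76.3% of all genes), P4ha1 and Ero1l upward and Bnip3, Pdk1 and Bnip3l downward. P4ha1 stood at 7.55, 5.39 and 7.35 CPM before culture, 6.61, 7.09 and 8.25 CPM at 4 h and 48.7, 50.9 and 50.0 CPM at 24 h in libraries labelled CIS-/-. In WT, P4ha1 stood at 5.5, 4.23 and 4.19 CPM before culture, 6.09, 5.44 and 6.75 CPM at 4 h and 14.5, 13.7 and 13.1 CPM at 24 h. P4ha1, a subunit of the collagen prolyl hydroxylase, lay above all other libraries in those labelled CIS-/- at 24 h, with the WT libraries of that time next. The genotype difference at 24 h was 1.86 ± 0.07 on the log2 scale (edgeR adjusted p = 3.84e-32). Ero1l stood at 40.2, 46.5 and 47.7 CPM before culture, 25.4, 24 and 25.4 CPM at 4 h and 84.6, 93.9 and 93.2 CPM at 24 h in libraries labelled CIS-/-. In WT, Ero1l stood at 52.4, 47.3 and 46.8 CPM before culture, 28.4, 27.3 and 27.4 CPM at 4 h and 32.4, 35.8 and 34.4 CPM at 24 h. Ero1l, an oxidase that forms disulphide bonds in secreted proteins, fell at 4 h in both genotypes and by 24 h stood highest in the libraries labelled CIS-/-, without overlap with any other group. Its change over 24 h differed by 1.53 ± 0.08 between genotypes (edgeR adjusted p = 2.06e-25), that of P4ha1 by 1.31 ± 0.16 (edgeR adjusted p = 5.55e-11).

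Bnip3 stood at 18.6, 17.9 and 19 CPM before culture, 32.9, 31.3 and 29 CPM at 4 h and 12.6, 10.5 and 9.61 CPM at 24 h in libraries labelled CIS-/-. In WT, Bnip3 stood at 24, 19.8 and 19 CPM before culture, 30.4, 32.2 and 29.5 CPM at 4 h and 45.3, 52 and 46 CPM at 24 h. Bnip3, a receptor that marks mitochondria for autophagy, was highest in WT at 24 h and lowest in libraries labelled CIS-/- at 24 h, with no overlap with any other group on either side. The log2 fold change against WT was -2.16 ± 0.08 (edgeR adjusted p = 8.26e-31), and that over 24 h was -0.78 ± 0.10 in libraries labelled CIS-/- and 1.20 ± 0.07 in WT. Part of Bnip3, 22.3% of its exon bases, overlaps the gene Gm45507 on the opposite strand, and the labels do not say whether reads were counted by strand. Pdk1, the kinase that keeps pyruvate out of the mitochondria, averaged 5.84 ± 0.24 CPM in libraries labelled CIS-/- and 9.47 ± 0.892 CPM in WT at 24 h (log2 fold change -0.69 ± 0.12, edgeR adjusted p = 9.86e-07), and at 4 h it averaged 1.23 ± 0.327 CPM in those labelled CIS-/- and 1.23 ± 0.303 CPM in WT. Bnip3l, a close relative of Bnip3, averaged 111 ± 4.76 CPM in libraries labelled CIS-/- and 120.5 ± 8.58 CPM in WT at 24 h, a log2 difference of -0.12 ± 0.04 (edgeR adjusted p = 0.0115). That call was lost with DESeq2 and when the 24 h replicate 2 of either genotype was left out.

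**Figure D2:**
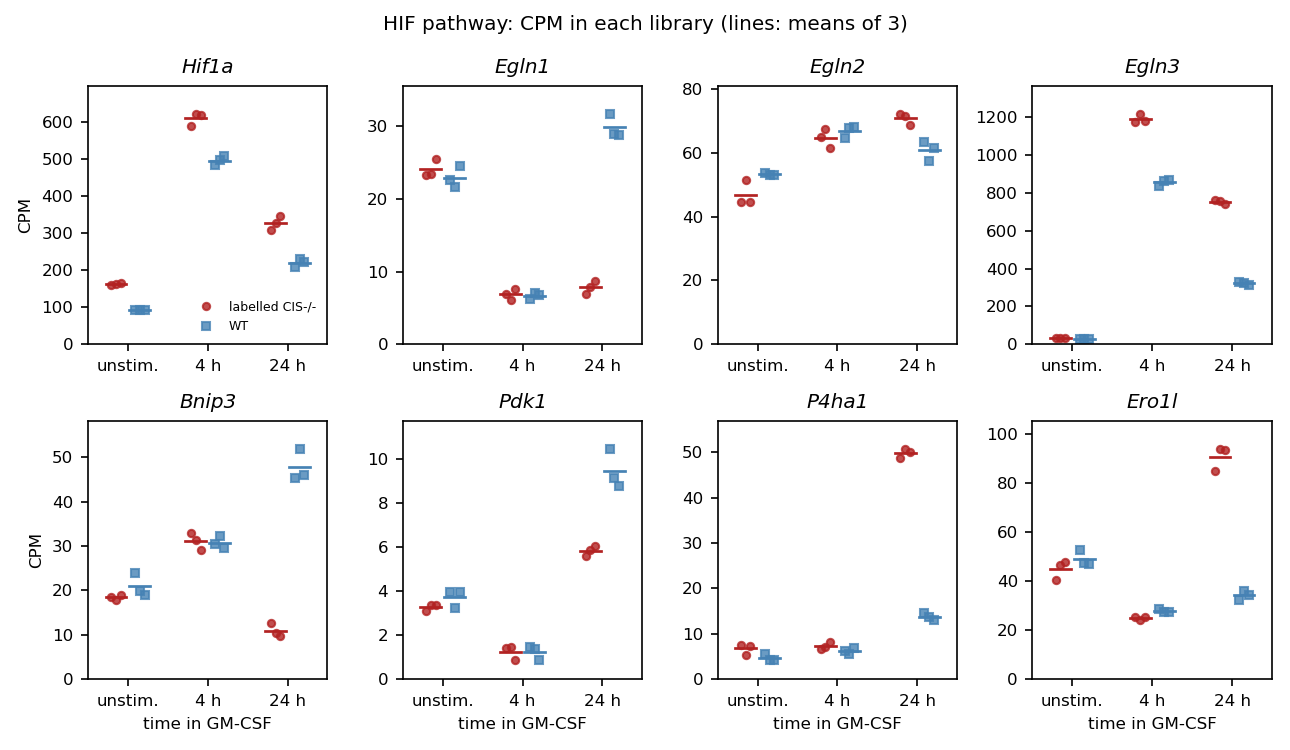
CPM (linear axis from 0) of HIF pathway genes in each of 3 libraries per group, with libraries labelled CIS-/- as red circles and WT as blue squares, at each time in GM-CSF, and a line at each group mean. Hif1a and Egln3 peak at 4 h, and at 24 h Egln3, P4ha1 and Ero1l lie higher and Egln1, Bnip3 and Pdk1 lower in the libraries labelled CIS-/-.

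The 2 main glucose transporters changed in opposite directions after GM-CSF. Per kilobase, unstimulated neutrophils of both genotypes held more Slc2a3 message (GLUT3, a high-affinity glucose transporter) than Slc2a1 (GLUT1, the transporter of many dividing and activated cells), and at 24 h the libraries labelled CIS-/- held more Slc2a1 than Slc2a3. Before culture Slc2a1 stood at 40.3 and Slc2a3 at 277 CPM per kb in libraries labelled CIS-/-, against 23.5 CPM for Slc2a1 and 244 CPM for Slc2a3 in WT. At 24 h Slc2a1 stood at 92.1 and Slc2a3 at 16.8 CPM per kb in libraries labelled CIS-/-, against 48.1 CPM for Slc2a1 and 63.7 CPM for Slc2a3 in WT. Slc2a3 is ENSMUSG00000003153.10 (chromosome 6, 122727809 to 122801640, minus strand) and Slc2a1 ENSMUSG00000028645.11 (chromosome 4, 119108711 to 119137983, plus strand) (GRCm38). Slc2a3 stood at 1989, 2012 and 2024 CPM before culture, 537, 554 and 532 CPM at 4 h and 118, 124 and 122 CPM at 24 h in libraries labelled CIS-/-. In WT, Slc2a3 stood at 1772, 1752 and 1775 CPM before culture, 615, 627 and 628 CPM at 4 h and 469.8, 465 and 449 CPM at 24 h. Slc2a3 fell at both times in both genotypes, and the libraries labelled CIS-/- at 24 h lay below all others without overlap. The log2 fold change over 24 h was -4.05 ± 0.04 in libraries labelled CIS-/- and -1.94 ± 0.03 in WT, a difference of -2.11 ± 0.05 (edgeR adjusted p = 4.77e-45). The further fall in WT between 4 h and 24 h (-0.43) turned to 0.053 with library sizes alone.

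Slc2a1 stood at 139, 146 and 139 CPM before culture, 366, 357 and 353 CPM at 4 h and 332, 321 and 315 CPM at 24 h in libraries labelled CIS-/-. In WT, Slc2a1 stood at 80.2, 84.1 and 82.9 CPM before culture, 271, 256 and 263 CPM at 4 h and 176, 164 and 166 CPM at 24 h. The libraries labelled CIS-/- lay above WT at all 3 time points without overlap, and both genotypes were highest at 4 h. Against WT, Slc2a1 was higher by 0.78 ± 0.04 unstimulated, 0.45 ± 0.04 at 4 h and 0.94 ± 0.04 at 24 h on the log2 scale (edgeR adjusted p = 3.20e-24, 9.98e-16 and 1.77e-32). Red cell precursors also carry this transporter, and the erythroid markers were likewise higher in libraries labelled CIS-/- at each time; their part in the difference was not tested. Slc2a6 stood at 389, 392 and 374 CPM before culture, 74.7, 76.4 and 67.7 CPM at 4 h and 374, 358 and 340.4 CPM at 24 h in libraries labelled CIS-/-. In WT, Slc2a6 stood at 301, 318 and 308 CPM before culture, 72.7, 75 and 74.4 CPM at 4 h and 218, 205 and 205 CPM at 24 h. Slc2a6, a lysosomal transporter of the same family, fell at 4 h in both genotypes, with a log2 fold change of -2.39 in libraries labelled CIS-/- and -2.06 in WT. At 24 h it stood above its 4 h level in both, and higher in libraries labelled CIS-/- than in WT (log2 fold change 0.77 ± 0.04, edgeR adjusted p = 2.17e-27).

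Lactate leaves the cell mainly through Slc16a3 (MCT4), whose message stood at 109.7 CPM per kb in libraries labelled CIS-/- and 71.6 CPM per kb in WT at 24 h, beside 0.205 and 0.0781 for Slc16a1 (MCT1) in the same groups. Slc16a3 stood at 1307, 1279 and 1260.3 CPM before culture, 499.7, 498 and 489 CPM at 4 h and 591, 584 and 576 CPM at 24 h in libraries labelled CIS-/-. In WT, Slc16a3 stood at 751, 752 and 751 CPM before culture, 545, 541 and 559 CPM at 4 h and 397, 367 and 378 CPM at 24 h. Slc16a3 was higher in libraries labelled CIS-/- before culture and at 24 h and lower at 4 h, each without overlap. The log2 fold changes against WT were 0.77 ± 0.03 unstimulated, -0.14 ± 0.03 at 4 h and 0.62 ± 0.03 at 24 h (edgeR adjusted p = 1.57e-29, 4.45e-04 and 5.13e-26). The fall from the unstimulated state to 4 h was larger in libraries labelled CIS-/-, with a log2 difference of -0.92 ± 0.04 (edgeR adjusted p = 3.74e-25). Slc16a1 was counted at 7 to 45 reads summed over the 3 libraries of a group, from 0.142 CPM in unstimulated WT to 0.908 CPM in libraries labelled CIS-/- at 24 h. Its genotype call at 24 h rests on these few reads and was lost when replicate 3 labelled CIS-/- was left out.

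Glucose is trapped in the cell by hexokinases, of which the myeloid form Hk3 had the highest message per kilobase, at 333 CPM in unstimulated WT beside 23.9 for Hk2 and 18.5 for Hk1. The 24 h response of Hk2, the inducible form, had opposite signs in the 2 genotypes. Hk2 is ENSMUSG00000000628.10 (chromosome 6, 82725025 to 82774454, minus strand) (GRCm38). Hk2 stood at 118, 111 and 118 CPM before culture, 182, 173 and 174 CPM at 4 h and 157, 151 and 150.1 CPM at 24 h in libraries labelled CIS-/-. In WT, Hk2 stood at 142, 144 and 141 CPM before culture, 163, 161 and 163 CPM at 4 h and 53.9, 50.0 and 53.1 CPM at 24 h. The 3 WT libraries at 24 h lay far below every other library. Over 24 h the log2 fold change of Hk2 was 0.40 ± 0.04 in libraries labelled CIS-/- and -1.45 ± 0.04 in WT, a difference of 1.85 ± 0.06 (edgeR adjusted p = 5.92e-37). Against WT, the log2 fold change of Hk2 was -0.30 ± 0.04 unstimulated and 1.55 ± 0.04 at 24 h (edgeR adjusted p = 7.93e-09 and 8.97e-41).

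Hk3 stood at 1205, 1239 and 1209 CPM before culture, 1433, 1369 and 1372 CPM at 4 h and 929, 1005 and 940.1 CPM at 24 h in libraries labelled CIS-/-. In WT, Hk3 stood at 1194, 1245 and 1245 CPM before culture, 1626, 1604 and 1614 CPM at 4 h and 738, 704 and 718 CPM at 24 h. Hk3 was highest at 4 h and lowest at 24 h in both genotypes. Its log2 fold change against WT at 24 h was 0.41 ± 0.03 with TMM scaling and -0.12 with library sizes alone. Hk1 stood at 163, 166 and 156 CPM before culture, 99.3, 101 and 98.9 CPM at 4 h and 58.6, 53.8 and 59.9 CPM at 24 h in libraries labelled CIS-/-. In WT, Hk1 stood at 152, 160.4 and 160.4 CPM before culture, 106, 104 and 105 CPM at 4 h and 68.7, 67.6 and 65.6 CPM at 24 h. Hk1, the housekeeping form, fell in both genotypes, and no library at 24 h overlapped an earlier one. Over 24 h Hk1 had a log2 fold change of -1.49 ± 0.04 in libraries labelled CIS-/- and -1.23 ± 0.04 in WT (edgeR adjusted p = 8.96e-39 and 6.76e-36).

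**Figure D3:**
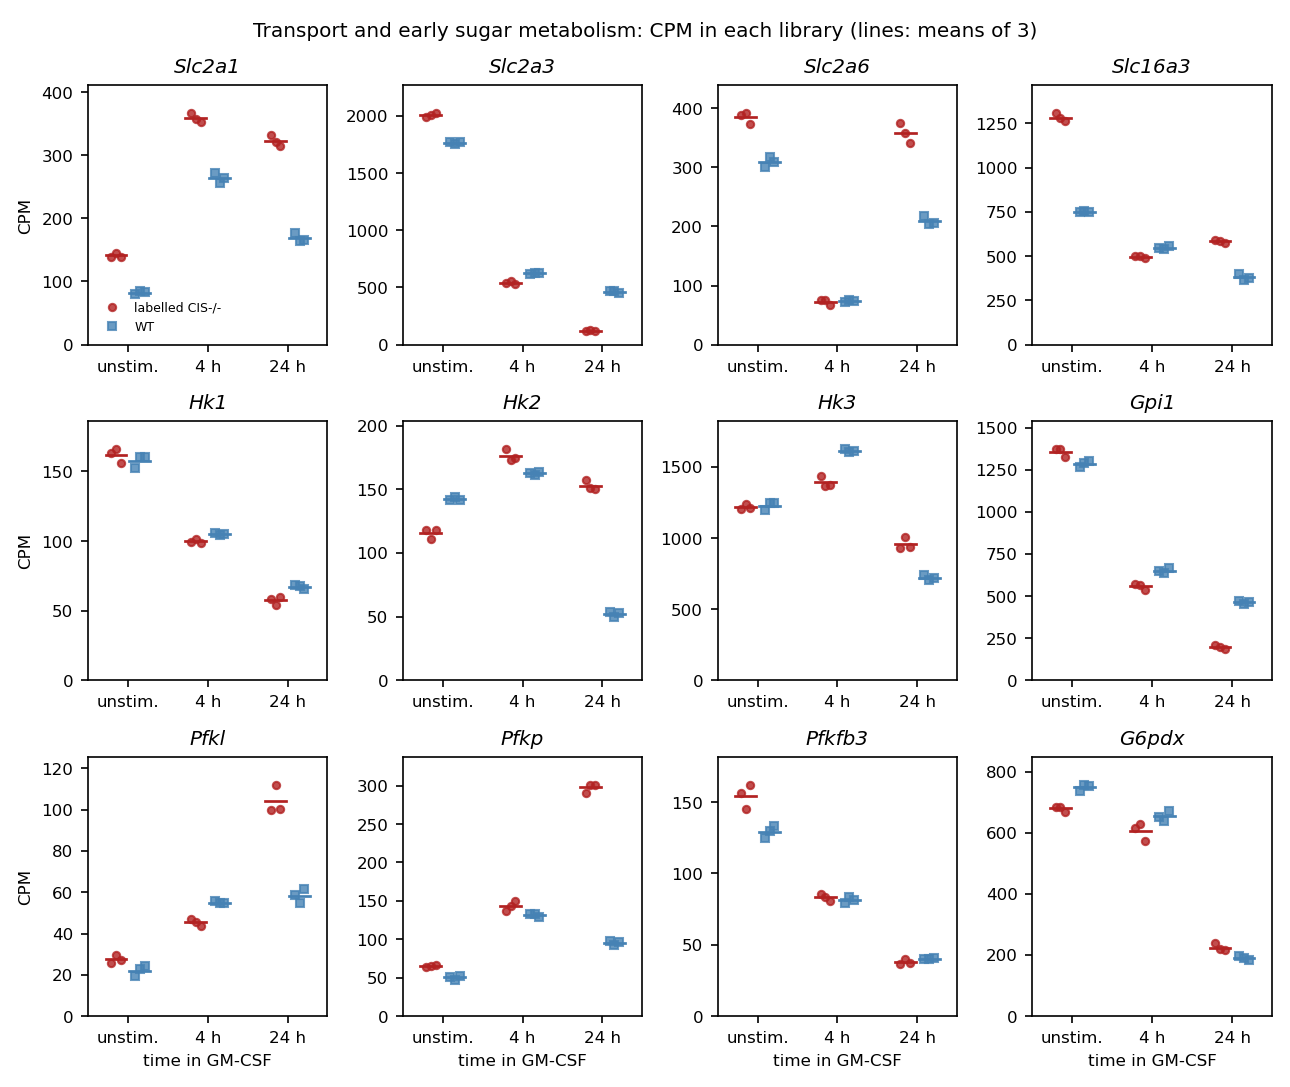
CPM (linear axis from 0) of transporters, glycolytic genes and G6pdx of the pentose phosphate pathway in each of 3 libraries per group. Libraries labelled CIS-/- are red circles and WT blue squares, at each time in GM-CSF, with a line at each group mean. At 24 h Slc2a3 and Gpi1 lie lower, and Slc2a1, Hk2 and Pfkp higher, in the libraries labelled CIS-/- than in WT.

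At the next steps Gpi1, the isomerase that makes fructose 6-phosphate, fell, while 2 isoforms of phosphofructokinase, the committed and most regulated step of glycolysis, rose. Gpi1 stood at 1373, 1371 and 1328 CPM before culture, 570.5, 569 and 536 CPM at 4 h and 208, 199 and 186 CPM at 24 h in libraries labelled CIS-/-. In WT, Gpi1 stood at 1265, 1291 and 1304 CPM before culture, 651, 638 and 665 CPM at 4 h and 471, 454 and 466 CPM at 24 h. Gpi1 fell at 4 h and again by 24 h in both genotypes (the further change in WT, -0.49, came to -0.0035 with library sizes alone), and the libraries labelled CIS-/- at 24 h were the lowest. The difference from WT at 24 h was -1.24 ± 0.04 on the log2 scale (edgeR adjusted p = 4.91e-39). For Gpi1, 11.5% of exon bases overlap Gm26762 on the opposite strand.

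Pfkp stood at 64.6, 64.6 and 66.3 CPM before culture, 137, 143 and 149 CPM at 4 h and 291, 301 and 301 CPM at 24 h in libraries labelled CIS-/-. In WT, Pfkp stood at 51.5, 46.6 and 52.7 CPM before culture, 132, 133 and 129 CPM at 4 h and 97.3, 93 and 96.2 CPM at 24 h. Pfkp, the platelet isoform, rose at 4 h in both genotypes, and by 24 h the libraries labelled CIS-/- stood above every other library. The log2 fold change over 24 h was 2.19 ± 0.04 in libraries labelled CIS-/- and 0.92 ± 0.04 in WT, a difference of 1.27 ± 0.06 (edgeR adjusted p = 4.11e-27). Pfkl stood at 25.7, 29.6 and 27.3 CPM before culture, 47.1, 45.4 and 43.7 CPM at 4 h and 99.8, 112 and 100.2 CPM at 24 h in libraries labelled CIS-/-. In WT, Pfkl stood at 19.4, 22.6 and 24.2 CPM before culture, 55.5, 54.9 and 54.6 CPM at 4 h and 58.5, 55 and 61.4 CPM at 24 h. Pfkl, the liver isoform, rose in every comparison with unstimulated libraries, was lower than WT in the libraries labelled CIS-/- at 4 h (log2 fold change -0.28 ± 0.06, edgeR adjusted p = 4.86e-04) and higher at 24 h (0.83 ± 0.05, edgeR adjusted p = 3.33e-22). Pfkm, the muscle isoform, was counted at 3 to 17 reads summed over a group's libraries and was not tested. Pfkfb3 stood at 157, 145 and 162 CPM before culture, 85.7, 83.6 and 81 CPM at 4 h and 36.3, 40.2 and 37 CPM at 24 h in libraries labelled CIS-/-. In WT, Pfkfb3 stood at 125, 129.7 and 133 CPM before culture, 79.5, 83.1 and 81.3 CPM at 4 h and 40.0, 39.7 and 40.4 CPM at 24 h. Pfkfb3, whose product fructose 2,6-bisphosphate activates phosphofructokinase, was lowest at 24 h in both genotypes, which overlap at that time. Over 24 h its log2 fold change was -2.04 ± 0.05 in libraries labelled CIS-/- and -1.69 ± 0.05 in WT, and the genotype difference at 24 h did not pass the test (-0.09 ± 0.05, edgeR adjusted p = 0.136).

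Of the 8 enzymes from aldolase to lactate dehydrogenase, 7 fell and 1, Eno1, rose at 4 h in either genotype, where 77.0% of all genes were called in libraries labelled CIS-/- and 76.3% in WT. Of 11569 tested genes, 4381 were higher and 4526 lower in libraries labelled CIS-/-, and 4404 higher and 4422 lower in WT. At 24 h 6 of the 8 were higher in libraries labelled CIS-/- than in WT (38.2% of all genes). Eno1 was lower, by -0.19 on the log2 scale (38.1% of all genes lower). But with library sizes alone Aldoa, Pgam1 and Ldha turned to lower and Pgk1 was not called, while Gapdh and Tpi1 stayed higher. Gapdh stood at 628, 611 and 601 CPM before culture, 436, 429.6 and 396 CPM at 4 h and 424, 390.3 and 362 CPM at 24 h in libraries labelled CIS-/-. In WT, Gapdh stood at 554, 592 and 591 CPM before culture, 414, 415 and 446 CPM at 4 h and 206, 194 and 192 CPM at 24 h. Gapdh, which makes the first NADH of the pathway, fell over 24 h with a log2 fold change of -0.65 ± 0.04 in libraries labelled CIS-/- and -1.55 ± 0.04 in WT, and the WT libraries at 24 h were the lowest of all. The genotype difference at 24 h was 0.99 ± 0.04 (edgeR adjusted p = 9.03e-21) and 0.46 with library sizes alone. Tpi1 stood at 64.4, 64.4 and 61.8 CPM before culture, 19.2, 21.2 and 18.9 CPM at 4 h and 92.5, 86.6 and 83.3 CPM at 24 h in libraries labelled CIS-/-. In WT, Tpi1 stood at 62, 63.3 and 60.7 CPM before culture, 24.2, 25.7 and 26.2 CPM at 4 h and 48, 44.1 and 48.3 CPM at 24 h. Tpi1, the triose isomerase, was lowest at 4 h in both genotypes and highest in libraries labelled CIS-/- at 24 h, where it exceeded WT by 0.90 ± 0.05 on the log2 scale (edgeR adjusted p = 5.58e-25).

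Ldha stood at 459.9, 464 and 450.3 CPM before culture, 375, 373 and 342 CPM at 4 h and 143, 146 and 141 CPM at 24 h in libraries labelled CIS-/-. In WT, Ldha stood at 423, 429 and 426 CPM before culture, 387, 377 and 397 CPM at 4 h and 113, 109 and 116 CPM at 24 h. Ldha, the lactate dehydrogenase subunit that turns pyruvate into lactate, fell slightly at 4 h (-0.33 on the log2 scale in libraries labelled CIS-/- and -0.14 in WT) and lay far lower at 24 h in all 6 libraries. Its log2 fold change over 24 h was -1.67 ± 0.04 in libraries labelled CIS-/- and -1.92 ± 0.04 in WT (edgeR adjusted p = 3.15e-45 and 2.32e-48). The genotype difference at 24 h, 0.35 ± 0.04, turned to -0.18 with library sizes alone.

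Pgk1 stood at 165, 155 and 152 CPM before culture, 82.6, 80.8 and 74.8 CPM at 4 h and 66.3, 61 and 62.4 CPM at 24 h in libraries labelled CIS-/-. In WT, Pgk1 stood at 154, 162 and 160.4 CPM before culture, 87.2, 85.9 and 88.1 CPM at 4 h and 46.1, 44.9 and 40.4 CPM at 24 h. Pgk1, the first ATP-making kinase of the pathway, fell at both times in both genotypes, and its libraries at 24 h lay below those at 4 h. The genotype difference at 24 h, 0.53 ± 0.05, came to -0.0060 with library sizes alone. Aldoa stood at 1106, 1109.9 and 1068 CPM before culture, 647, 654 and 625 CPM at 4 h and 1551, 1389 and 1344 CPM at 24 h in libraries labelled CIS-/-. In WT, Aldoa stood at 1029, 1062 and 1039 CPM before culture, 632, 619 and 643 CPM at 4 h and 1347, 1309 and 1313 CPM at 24 h. Aldoa, the aldolase of muscle and most cells, fell at 4 h and was above its unstimulated level at 24 h in every library, by 0.38 ± 0.03 on the log2 scale in libraries labelled CIS-/- and 0.34 ± 0.03 in WT. The 2 genotypes overlap at 24 h. The name Aldoa belongs to 2 gene IDs, and the one with more counts is given.

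Eno1, an enolase, was the one enzyme of this stretch that rose at 4 h, to 848 ± 33.2 CPM in libraries labelled CIS-/- and 718 ± 17.1 CPM in WT, against 492 ± 6.54 CPM in unstimulated libraries labelled CIS-/- and 474 ± 6.48 CPM in unstimulated WT. Its log2 fold change was 0.79 ± 0.03 in libraries labelled CIS-/- and 0.60 ± 0.03 in WT (edgeR adjusted p = 3.33e-30 and 2.16e-24). Pkm, the pyruvate kinase whose counts sum its splice forms, averaged 1246 ± 25.1 CPM in libraries labelled CIS-/- and 1242 ± 30.2 CPM in WT at 24 h, against 2382 ± 74 CPM in unstimulated libraries labelled CIS-/- and 2326 ± 92.2 CPM in unstimulated WT. For Pkm the log2 fold change over 24 h was -0.94 ± 0.03 in libraries labelled CIS-/- and -0.91 ± 0.03 in WT, and the genotype difference at 24 h was 0.0046 ± 0.03 (edgeR adjusted p = 0.904), which became -0.53 with library sizes alone. Of its exon bases, 15.3% overlap Gm49759 on the same strand. Pgam1 stood at 37.1, 37.1 and 36.2 CPM before culture, 14, 14.2 and 14 CPM at 4 h and 41.7, 39.5 and 37 CPM at 24 h in libraries labelled CIS-/-. In WT, Pgam1 stood at 32.7, 34.8 and 34.9 CPM before culture, 18.5, 16.4 and 18 CPM at 4 h and 33.2, 32.6 and 31.5 CPM at 24 h. Pgam1, the phosphoglycerate mutase, was lowest at 4 h in both genotypes, and its levels at 24 h overlapped the unstimulated ones in each. Its log2 fold change at 4 h was -1.38 ± 0.07 in libraries labelled CIS-/- and -0.95 ± 0.07 in WT. Between 4 h and 24 h it was 1.47 ± 0.07 in libraries labelled CIS-/- and 0.88 ± 0.07 in WT. Several of these enzymes have near-identical processed pseudogenes, among them Gapdh, Pgk1, Tpi1, Pgam1, Eno1, Ldha and Aldoa, so their absolute levels depend on how reads were shared out.

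At 24 h all 6 genes of the pentose phosphate pathway were below their unstimulated level in both genotypes (in WT Rpia came to 0.0058 with library sizes alone), and at 4 h 5 of 6 were, with Pgd not called. Over all genes 84.1% were called in either direction over 24 h in libraries labelled CIS-/- and 78.4% in WT. Of 11569 tested genes, 4862 were lower over 24 h in libraries labelled CIS-/- and 4361 in WT. At 4 h, 4526 were lower in libraries labelled CIS-/- and 4422 in WT. G6pdx stood at 685, 684 and 669 CPM before culture, 616, 629 and 573 CPM at 4 h and 239, 218 and 216 CPM at 24 h in libraries labelled CIS-/-. In WT, G6pdx stood at 735, 757 and 754 CPM before culture, 649.7, 638 and 672 CPM at 4 h and 198, 191 and 183 CPM at 24 h. G6pdx, glucose-6-phosphate dehydrogenase, the entry enzyme and first source of NADPH, fell most of its way between 4 h and 24 h, and no library at 24 h overlapped an earlier one. The log2 fold change over 24 h was -1.60 ± 0.04 in libraries labelled CIS-/- and -1.97 ± 0.04 in WT (edgeR adjusted p = 3.44e-44 and 6.45e-49). The genotype difference at 24 h, 0.23 ± 0.04, turned to -0.30 with library sizes alone, and 13.6% of the exon bases of G6pdx overlap Ikbkg on the opposite strand.

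Tkt stood at 1425, 1441 and 1352 CPM before culture, 618, 624 and 589.8 CPM at 4 h and 405, 402 and 394 CPM at 24 h in libraries labelled CIS-/-. In WT, Tkt stood at 1350.0, 1423 and 1388 CPM before culture, 669, 675 and 705 CPM at 4 h and 554, 527 and 539 CPM at 24 h. Tkt, the transketolase that links the pathway back to glycolysis, was lower at 4 h and lower still at 24 h (in WT the further change of -0.34 turned to 0.15 with library sizes alone), with the libraries labelled CIS-/- below WT at both times without overlap. The difference from WT at 24 h was -0.43 ± 0.03 (edgeR adjusted p = 3.45e-18). Pgls stood at 21.4, 20.9 and 19.5 CPM before culture, 6.35, 6.11 and 5.96 CPM at 4 h and 6.2, 3.68 and 4.45 CPM at 24 h in libraries labelled CIS-/-. In WT, Pgls stood at 21, 21.1 and 20.6 CPM before culture, 8.46, 5.98 and 7.07 CPM at 4 h and 13, 11.8 and 13.6 CPM at 24 h. Pgls, the lactonase of the second step, was lowest in libraries labelled CIS-/- at 24 h, where 1 of 3 libraries overlapped those at 4 h. It differed from WT by -1.41 ± 0.12 at 24 h (edgeR adjusted p = 7.07e-17), with 20.6% of its exon bases shared with Fam129c on the same strand.

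Taldo1, the transaldolase, averaged 854 ± 62.9 CPM in libraries labelled CIS-/- and 1065 ± 20.8 CPM in WT at 24 h, against 1487 ± 22.4 CPM in unstimulated libraries labelled CIS-/- and 1471 ± 18.3 CPM in unstimulated WT. Against WT at 24 h, Taldo1 had a log2 fold change of -0.32 ± 0.03 (edgeR adjusted p = 1.56e-12). Pgd, which makes the second NADPH, averaged 1567 ± 44.1 CPM in libraries labelled CIS-/- and 1362 ± 10.1 CPM in WT at 24 h, and its log2 difference of 0.20 ± 0.03 turned to -0.33 with library sizes alone. Rpia, the ribose-5-phosphate isomerase, averaged 20.1 ± 0.287 CPM in libraries labelled CIS-/- and 24.3 ± 0.894 CPM in WT at 24 h (log2 fold change -0.28 ± 0.07, edgeR adjusted p = 1.39e-04). At 4 h its level was 19.2 ± 0.693 CPM in libraries labelled CIS-/- and 16.8 ± 0.931 CPM in WT, against 28.3 ± 0.582 CPM in unstimulated libraries labelled CIS-/- and 30.0 ± 0.507 CPM in unstimulated WT.

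**Figure D4:**
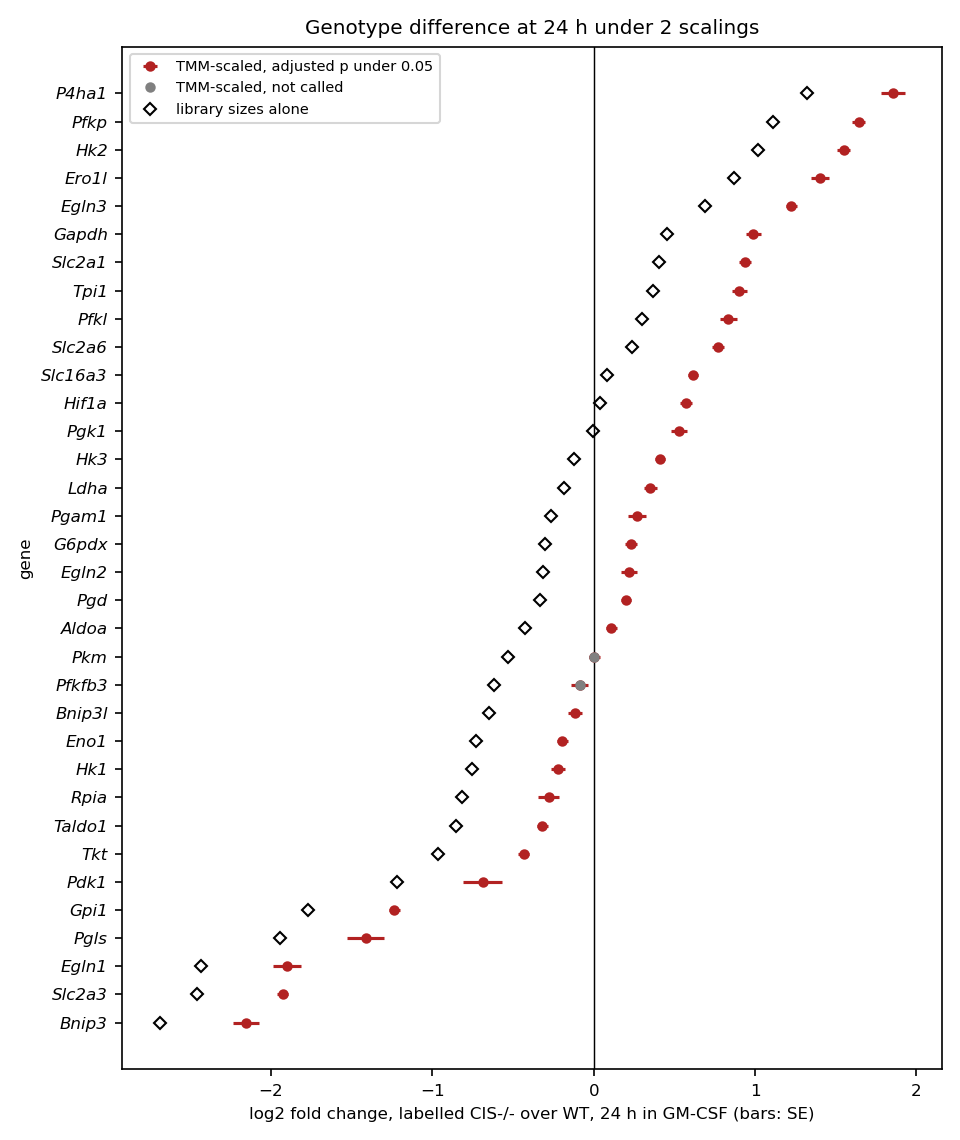
Log2 fold change of libraries labelled CIS-/- over WT at 24 h in GM-CSF for the 34 tested genes other than Slc16a1, with TMM scaling (filled points, red where the adjusted p is under 0.05 and grey otherwise, bars for SE) and with library sizes alone (open diamonds). P4ha1 lies highest and Bnip3 lowest under both scalings, and Hk3, Aldoa, Pgk1, Pgam1, Ldha, G6pdx, Pgd, Egln2 and, uncalled, Pkm are above 0 only with TMM scaling.

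Other genes of the same pathways were counted from lists that were chosen with earlier results of these data known. Over all genes 76.3% were called at 4 h in WT, 78.4% at 24 h in WT and 76.3% between genotypes at 24 h, the last 38.2% higher and 38.1% lower. In WT 4404 of 11569 tested genes were higher and 4422 lower at 4 h, and 4707 higher and 4361 lower at 24 h. These values over all genes are the background of the counts that follow. Of 24 tested other genes of glycolysis and pyruvate metabolism, 1 rose and 16 fell at 4 h in WT, and 9 rose and 13 fell by 24 h. Of the 24, 5 were higher and 15 lower in libraries labelled CIS-/- than in WT at 24 h. Their median log2 genotype difference at 24 h was -0.57, against -0.02 over all genes, and with library sizes alone 2 were higher. Adpgk, an ADP-dependent glucokinase, averaged 481 ± 16.6 CPM at 4 h and 70.5 ± 1.9 CPM at 24 h in WT, against 2346 ± 24.8 CPM unstimulated (-2.29 ± 0.03 and -5.06 ± 0.04 on the log2 scale, edgeR adjusted p = 1.94e-55 and 2.71e-70). At 24 h Gpd1l, a glycerol-3-phosphate dehydrogenase, averaged 4.42 ± 0.293 CPM in libraries labelled CIS-/- and 49.4 ± 1.55 CPM in WT (log2 fold change -3.48 ± 0.08, edgeR adjusted p = 1.12e-44). Fbp1, the gluconeogenic bisphosphatase, averaged 17.7 ± 0.237 CPM in libraries labelled CIS-/- and 4.34 ± 0.19 CPM in WT at 24 h (log2 fold change 2.03). Pfkfb4, a relative of Pfkfb3, averaged 115 ± 3.38 CPM in libraries labelled CIS-/- and 339 ± 5.02 CPM in WT at 24 h (log2 fold change -1.57). Over 24 h in WT it fell (-0.60). Mpc2, a subunit of the mitochondrial pyruvate carrier, averaged 22.4 ± 0.733 CPM at 4 h and 23.3 ± 1.7 CPM at 24 h in WT, against 65.1 ± 3.39 CPM unstimulated. Gpd1l averaged 25.3 ± 0.728 CPM at 4 h in WT, against 69.2 ± 1.34 CPM unstimulated (log2 fold change -1.45).

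Of 8 other tested pentose phosphate genes, none rose and 6 fell at 4 h in WT, and 1 rose and 5 fell by 24 h. At 24 h 2 were higher and 3 lower in libraries labelled CIS-/- (1 and 5 with library sizes alone). H6pd, the dehydrogenase of the endoplasmic reticulum, averaged 12 ± 0.454 CPM in libraries labelled CIS-/- and 60.1 ± 1.64 CPM in WT at 24 h (log2 fold change -2.31 ± 0.07, edgeR adjusted p = 4.16e-39). In WT its log2 fold change was -1.50 at 4 h and -0.50 over 24 h. Idnk, a gluconokinase, averaged 14 ± 1.43 CPM in libraries labelled CIS-/- and 27 ± 2.09 CPM in WT at 24 h (log2 fold change -0.97), against 22.3 ± 1.52 CPM in unstimulated WT. Rpe, the ribulose-5-phosphate epimerase, averaged 16.9 ± 1.41 CPM in libraries labelled CIS-/- and 13.8 ± 0.151 CPM in WT at 24 h, a log2 difference of 0.31 that turned to -0.22 with library sizes alone. In WT, Rpe fell at 4 h (-0.27) and over 24 h (-1.22). Of 17 glycogen genes, 3 rose and 14 fell at 4 h in WT, and 3 rose and 13 fell by 24 h. At 24 h 8 were higher and 6 lower in libraries labelled CIS-/-, which became 1 and 12 with library sizes alone. Pygl, the liver-type glycogen phosphorylase, averaged 1146 ± 34.7 CPM in libraries labelled CIS-/- and 2127 ± 29.3 CPM in WT at 24 h (log2 fold change -0.89 ± 0.03, edgeR adjusted p = 5.21e-36). Gyg, the glycogenin that primes glycogen, averaged 24.6 ± 1.74 CPM in WT at 24 h, against 129.5 ± 3.05 CPM in unstimulated WT (log2 fold change -2.39). Gys1, the glycogen synthase of muscle and most tissues, had a log2 fold change of -1.77 over 24 h in WT. Ppp1r3b, a subunit that targets a phosphatase to glycogen, had -1.16. At 4 h in WT the log2 fold change was -1.92 for Phka2 and -1.53 for Phkb, both subunits of phosphorylase kinase. Gbe1, the branching enzyme, had -1.60. At 24 h Phka2 averaged 5.45 ± 0.624 CPM in libraries labelled CIS-/- and 13.9 ± 1.06 CPM in WT (log2 fold change -1.33). Ppp1r3d, another glycogen-targeting subunit, averaged 218 ± 3.47 CPM in libraries labelled CIS-/- and 114 ± 3.82 CPM in WT (log2 fold change 0.93).

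Of 15 other tested HIF pathway and hypoxia genes, 6 rose and 8 fell at 4 h in WT, 7 rose and 6 fell by 24 h, and 7 were higher and 6 lower in libraries labelled CIS-/- at 24 h. Bhlhe40, a repressor induced by hypoxia and by cytokines, averaged 1362 ± 16.3 CPM at 4 h and 1109 ± 10.0 CPM at 24 h in WT, against 25.6 ± 0.666 CPM unstimulated (5.74 ± 0.04 and 5.44 ± 0.04 on the log2 scale, edgeR adjusted p = 2.22e-70 and 1.35e-69). Vegfa, the angiogenic growth factor and a HIF target, averaged 165 ± 9.21 CPM in libraries labelled CIS-/- and 29.6 ± 1.04 CPM in WT at 24 h (log2 fold change 2.49 ± 0.05, edgeR adjusted p = 7.46e-47). Mxi1, an antagonist of MYC, averaged 41.1 ± 2.5 CPM in libraries labelled CIS-/- and 131 ± 3.52 CPM in WT at 24 h (log2 fold change -1.66 ± 0.04, edgeR adjusted p = 2.02e-40). Mif, a cytokine and HIF target, averaged 17.1 ± 1.39 CPM in libraries labelled CIS-/- and 7.23 ± 0.548 CPM in WT at 24 h (log2 fold change 1.24). In WT, Kdm3a, a histone demethylase and HIF target, had a log2 fold change of 1.14 at 4 h and 0.75 over 24 h. Plod1, a lysyl hydroxylase of collagen, had -0.88 at 4 h. Anxa2, an annexin, had -1.16 over 24 h.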

How the data were processed

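The authors deposited raw read counts per Ensembl gene for all 18 libraries, made with Trimmomatic, STAR and featureCounts on mm10, per the submitters' processing notes; their versions, the annotation release and the strand setting were not stated there. Per the labels' protocols the library kit was strand-specific. Of 53379 gene IDs, 53274 matched a name in GENCODE release M21, and the 105 unnamed ones held 0.0238% of the counts. The counts went into edgeR 4.0.16 under R 4.3.3: filterByExpr by group (11569 genes left, 99.9% of the counts), TMM factors, 1 robust quasi-likelihood model of the 6 groups, two-sided tests of contrasts and genotype-by-time interactions, and Benjamini-Hochberg adjustment over all tested genes. An adjusted p under 0.05 counted as called; fold changes are given ± SE, CPM as mean ± SD (n = 3 libraries). The pipeline was tested on simulated data for 2 comparisons, genotypes at 24 h and WT at 24 h against unstimulated. It recovered 58% and 74% of 1.25-fold changes, 78% and 86% of 1.5-fold ones, and 98% and 100% of 2-fold ones. Of its calls, 5.68% and 6.74% fell on unchanged genes. Exon lengths and overlaps come from GENCODE, promoters from RefSeq. Members, lists, tests and alternatives were chosen with earlier results of these data known. Every member is accounted for; values of each library are given for those changed at least 2-fold with at least 10 CPM and groups that do not overlap and for the main ones of each role, interactions for the 4 largest of each sign, and for other pathway lists the 3 largest changes. Of 36 members, 34 had 10 counts or more in every library. Alternatives were RLE factors, library sizes alone, DESeq2 1.42.0, other low-count filters, a replicate block, fits on just the groups compared, and each library left out.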

Additional observations from a re-analysis of the deposited data

Results flagged for a closer look

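The genotypes' responses differed by an interaction test (edgeR) for the genes below, the 4 largest in each direction at each time; all values are log2, labelled CIS-/- minus WT, and none changed sign with library sizes alone. Between the unstimulated state and 4 h the response of libraries labelled CIS-/- was higher than that of WT for Hk2 (0.42), Rpia (0.29), Egln3 (0.19) and Eno1 (0.19), and lower for Slc16a3 (-0.92), Pfkl (-0.59), Hif1a (-0.52) and Pgam1 (-0.43). In all, 4 of 35 genes differed upward and 14 downward at 4 h, where 15.7% of all genes were called. Leaving out 1 library ended the call of Rpia in 7 cases of 12, namely without unstimulated replicate 1 or 2 or 4 h replicate 2 labelled CIS-/-, or WT unstimulated replicate 2 or 3 or 4 h replicate 1 or 2. For Egln3 it did so in 5 cases, without unstimulated replicate 2 or 3 or 4 h replicate 2 labelled CIS-/-, or WT unstimulated replicate 1 or 4 h replicate 1.

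Between the unstimulated state and 24 h the response was higher for Hk2 (1.85), Ero1l (1.53), P4ha1 (1.31) and Pfkp (1.27), and lower for Slc2a3 (-2.11), Bnip3 (-1.98), Egln1 (-1.97) and Pgls (-1.39). At 24 h 16 differed upward and 14 downward (64.7% of all genes called), which became 7 and 22 with library sizes alone. Of all 11569 tested genes, 2028 then differed upward and 6178 downward.

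Between 4 h and 24 h it was higher for P4ha1 (1.59), Ero1l (1.56), Pfkp (1.52) and Hk2 (1.43), and lower for Bnip3 (-2.17), Egln1 (-1.92), Slc2a3 (-1.72) and Pgls (-1.20). Here 19 differed upward and 11 downward (66.0% of all genes called), or 11 and 19 with library sizes alone. Of all 11569 tested genes, 2247 then differed upward and 6154 downward.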

How the results depend on the processing

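Scaling mattered most. With library sizes alone, 12 genes fell in WT between 4 h and 24 h (21 with TMM), 6 were lower in unstimulated libraries labelled CIS-/- than in WT (3), and 12 were higher and 21 lower at 24 h (21 and 12). Of the interactions, 7 were then higher and 22 lower at 24 h, and 11 higher and 19 lower between 4 h and 24 h. All 11569 tested genes moved too. With library sizes alone, 2506 of them fell in WT between 4 h and 24 h, and 6352 rose over 24 h. Between genotypes 1660 were lower before culture, and 2558 were higher and 6999 lower at 24 h. Their interactions came to 2028 higher and 6178 lower at 24 h. Between 4 h and 24 h these were 2247 higher and 6154 lower. Among the other pathway genes, the counts for libraries labelled CIS-/- against WT at 24 h became 2 higher for glycolysis, 1 higher and 5 lower for the pentose phosphate pathway and 1 higher and 12 lower for glycogen, and those that rose over 24 h in WT became 2 for the pentose phosphate pathway and 6 for glycogen. Among genes called with TMM, the log2 values that changed sign with library sizes alone were, in WT over 24 h, Rpia (0.0058) and Bnip3l (0.22), and in WT between 4 h and 24 h Slc2a3 (0.053), Pfkp (0.022), Eno1 (0.0095), Pgd (0.048), Taldo1 (0.19), Tkt (0.15) and Egln2 (0.35). Between genotypes at 24 h they were Hk3 (-0.12), Aldoa (-0.42), Pgk1 (-0.0060), Pgam1 (-0.26), Ldha (-0.18), G6pdx (-0.30), Pgd (-0.33), Egln2 (-0.31) and Rpe (-0.22). In the interaction at 24 h they were Slc2a1 (-0.33), Slc2a6 (-0.037), Hk3 (-0.067), Ldha (-0.25), G6pdx (-0.12), Pgd (-0.22) and Egln2 (-0.088), and in that between 4 h and 24 h Slc2a1 (-0.034), Ldha (-0.083), G6pdx (-0.18), Pgd (-0.32), Hif1a (-0.25) and Egln2 (-0.26). The cause was not tested.

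Within groups, counts over all genes differed most between 24 h replicate 1 labelled CIS-/- and replicates 2 and 3 of that group. The chi-square per degree of freedom was 6.82 and 8.46 for these pairs, and 1.29 to 2.90 for all others. The 1 model of the 6 groups does not give this group a spread of its own. Other settings changed fewer counts than scaling did. A fit of the unstimulated groups alone gave 5 genes lower in libraries labelled CIS-/-. Without a low-count filter 2 interactions at 4 h were higher, and 2 other glycolysis genes rose at 4 h in WT. Leaving out 1 library gave 2 to 4 higher interactions at 4 h, with 2 when unstimulated replicate 2 or 4 h replicate 2 labelled CIS-/- or WT 4 h replicate 1 was left out, and 1 to 2 other glycolysis genes that rose at 4 h in WT, with 2 without unstimulated WT replicate 1. Of the calls examined for single genes, 15 were lost without a low-count filter, 12 with DESeq2 and 5 in fits of the groups compared. With RLE factors 4 were lost, with a strict filter 1, and 76 of 2724 when a library was left out. With library sizes alone 15 were lost with their sign kept, and a further 31 changed sign, some of them without a call. Same-numbered libraries did not deviate together (correlations from -0.08 to 0.07 over 45 pairs), so no pairing by number was seen. A small shared effect could be missed in this way, and the labels do not say whether libraries were paired. With a replicate block, 21 genes were higher and 12 lower in libraries labelled CIS-/- at 24 h, and 0 single calls were lost. The HIF core in the 150 bases before the start was found in 84.8% of matched genes and 48.9% of tested genes. Slc16a1 and Pfkm had few reads.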
